A study of Mus musculus with 6 samples.

Results

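The tissue inhibitors of metalloproteinases (TIMPs) and the plasminogen activators with their receptor and inhibitors are 2 neighbouring systems that control how fast a cell breaks down the matrix around it. The set described here was chosen by gene symbol and holds 9 genes of the 27179 in the deposited table. They are the 4 TIMP genes (Timp1, Timp2, Timp3 and Timp4), the membrane-bound inhibitor gene Reck, the plasminogen activator genes Plau and Plat, the urokinase receptor gene Plaur and the serpin gene Serpine2. Messenger RNA was sequenced from primary vascular smooth muscle cells of the mouse aorta, the contractile cells of the artery wall, in 3 libraries labelled Bmal1 KO and 3 labelled WT. Bmal1 (listed as Arntl) encodes a core transcription factor of the circadian clock. Both sets of cells spent 7 days in what is labelled a diabetic medium, with glucose at 4.5 g/L and hydrogen peroxide at 0.3 mM. The only labelled contrast is thus genotype within that medium, and sex-linked genes also separated the groups (values below). The labels used here give neither the way Bmal1 was deleted nor the age or sex of the mice, and are silent on whether replicates came from different cultures or mice, so a p-value here reflects spread between libraries that may be only technical.

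TIMPs are small secreted proteins that bind the active site of matrix metalloproteinases and block them. TIMP3 stays bound to the matrix and also blocks ADAM and ADAMTS proteases, while TIMP2, with the membrane protease MMP14, also helps to activate MMP2. Urokinase (Plau) and tissue-type plasminogen activator (Plat) cut plasminogen into plasmin, which degrades fibrin and activates several metalloproteinases. Urokinase acts at the cell surface when bound to its receptor (Plaur), and serpins such as protease nexin-1 (Serpine2) inactivate it. In the artery wall these systems are known for their part in smooth muscle migration and matrix remodelling after injury.

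The promoters of the members are shown first because the genes they belong to moved in opposite directions. RefSeq windows (GRCm38.p6, the mm10 build) reaching from 250 bases before to 50 bases after an annotated start site were found for 7 of the 9 members. None was found for Plau and Plat, the 2 members that fell most. Printed here, 5′ to 3′ along the gene, are the 2 members with a window that rose most (Timp1 and Timp3). With them are the 2 members with a window that fell (Plaur and Serpine2). The Plaur window surrounds a start site that lies inside the gene span of the annotation. Capitals mark matches, on either strand, to the AP-1 element TGACTCA, to the form TGAGTAA known from the mouse Timp1 promoter, and to the GC box CCGCCC.
Timp1 (chrX:20869916-20870215, plus strand): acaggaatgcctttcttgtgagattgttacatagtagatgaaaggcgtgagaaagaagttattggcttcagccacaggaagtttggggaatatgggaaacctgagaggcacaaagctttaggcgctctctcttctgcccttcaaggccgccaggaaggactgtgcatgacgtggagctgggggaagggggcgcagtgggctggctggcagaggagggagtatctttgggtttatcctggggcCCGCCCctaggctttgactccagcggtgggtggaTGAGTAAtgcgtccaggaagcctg
Timp3 (chr10:86300162-86300461, plus strand): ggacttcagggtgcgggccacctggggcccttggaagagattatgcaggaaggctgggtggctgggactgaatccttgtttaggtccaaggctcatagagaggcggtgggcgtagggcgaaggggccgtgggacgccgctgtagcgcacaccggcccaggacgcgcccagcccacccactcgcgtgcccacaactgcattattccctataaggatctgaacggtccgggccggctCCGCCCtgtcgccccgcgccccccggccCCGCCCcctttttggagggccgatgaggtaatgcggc
Plaur (chr7:24462233-24462532, plus strand): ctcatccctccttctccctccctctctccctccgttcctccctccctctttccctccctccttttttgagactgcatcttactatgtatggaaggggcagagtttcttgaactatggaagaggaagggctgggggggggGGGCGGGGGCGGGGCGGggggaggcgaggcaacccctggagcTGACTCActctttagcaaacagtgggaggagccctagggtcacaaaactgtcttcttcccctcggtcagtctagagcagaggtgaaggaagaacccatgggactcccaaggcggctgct
Serpine2 (chr1:79858616-79858915, minus strand): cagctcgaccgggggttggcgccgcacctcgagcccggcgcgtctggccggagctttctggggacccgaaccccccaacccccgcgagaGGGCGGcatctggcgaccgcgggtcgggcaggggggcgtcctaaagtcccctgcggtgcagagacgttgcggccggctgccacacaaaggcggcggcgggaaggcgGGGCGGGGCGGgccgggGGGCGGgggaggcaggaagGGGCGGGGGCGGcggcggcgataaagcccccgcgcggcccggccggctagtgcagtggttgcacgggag

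The E-box CACGTG, which CLOCK and BMAL1 bind, and its variant CACGTT were in none of the 7 windows. Plau and Plat had no window to search. Among all 32851 windows, CACGTG was in 7.15% and CACGTT in 4.68%. TGACTCA was found in the Plaur window alone, starting 69 bases before the start site, and in 5.20% of all windows. TGAGTAA was in the Timp1 window alone, starting at base 27 after the start site, and in 2.68% of all windows. The GC box was in 6 of the 7 windows, all but that of Timp4, and in 35.7% of all windows. Counting overlapping matches, Serpine2 had 6, Reck and Plaur 3 each, Timp3 2, and Timp1 and Timp2 1 each. The GC content was 77.7% for Serpine2, 69.3% for Reck, 68.7% for Timp2, 67.0% for Timp3, 59.3% for Plaur, 55.0% for Timp1 and 53.3% for Timp4, against a median of 52.7% over all windows. Members on either side of the comparison thus had GC-rich windows, and a letter match is a description, not evidence that a factor binds there.

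Values are normalized read counts, the reads of a gene divided by a size factor of the library, and each ± is an SD of 3 libraries. Reads assigned to genes ran from 32503525 to 38074293 in the libraries labelled Bmal1 KO and from 39129037 to 44657471 in WT. Counts of Bmal1 itself were 1.73-fold higher under the KO label (1005 ± 54.9 in libraries labelled Bmal1 KO and 579 ± 45.7 in WT, SD, n = 3 each). The groups did not overlap (log2 fold change 0.79, limma adjusted p = 0.000135). Counts over a whole gene cannot show a missing exon. These counts do not bear out the genotype labels, which are used as given, and every direction is that of the libraries labelled Bmal1 KO. Xist, the RNA of the inactive X chromosome, was at 3867 ± 23.1 in these libraries and 58.7 ± 40.8 in WT, and Y-linked Ddx3y at 77.1 ± 7.53 under the KO label and 3109 ± 285 in WT, so sex-linked expression and genotype label cannot be told apart here. Smooth muscle markers were present throughout, all 7 of 7 higher in the libraries labelled Bmal1 KO, where their summed counts were 99990 to 108298 against 28598 to 32722 in WT. Over all tested genes 71.1% passed the test described below, 36.2% higher and 34.9% lower. Every marker count here and in the next paragraph stands against that background. The late contractile marker Myh11 was low, at 274 ± 16.3 in the libraries labelled Bmal1 KO and 35.9 ± 28.3 in WT.

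Markers of other cells were also present. Summed endothelial markers (6 genes, 5 higher) were at 799 to 1054 in the libraries labelled Bmal1 KO and 322 to 463 in WT. Macrophage markers (6 genes, 5 higher, 1 lower) summed to 1809 to 2053 under the KO label and 829 to 1035 in WT. Fibroblast markers (5 genes, 2 higher, 3 lower) summed to 15676 to 16573 in the libraries labelled Bmal1 KO and 37283 to 39325 in WT, with Dcn the highest. The direction of the fibroblast sum rests on Dcn: without it the other 4 summed to 13265 to 14251 under the KO label and 10788 to 12391 in WT. Most of that remaining sum was Pdgfra (12442 ± 547 under the KO label and 10681 ± 916 in WT). Pdgfra and Dpt rose. Dcn, Lum (55.1 ± 3.67 under the KO label and 462 ± 26.4 in WT) and Pi16 (38.4 ± 6.34 and 62.6 ± 6.44) fell. Among macrophage markers Cd68 fell (74.0 ± 13.4 under the KO label and 348 ± 54.3 in WT, limma adjusted p = 2.74e-05). Mesothelial markers (4 genes, 1 higher, 3 lower) summed to 5711 to 6256 under the KO label and 3264 to 4341 in WT, a direction that turned without Msln (1259 to 1577 under the KO label and 2935 to 3984 in WT). Schwann cell markers (3 genes, 2 higher, 1 too low to test) summed to 622 to 1266 under the KO label and 97.9 to 347 in WT. Adipocyte markers were near 0 everywhere, at most 7.19 under the KO label and 6.42 in WT, and mast cell markers summed to 78.8 to 88.7 under the KO label and 101 to 105 in WT, with Kit the highest. Tested genes with a mean under 100 normalized counts more often rose in this comparison (43.1%, against 33.9% with a mean of 1000 and over). Of them, 18.3% had a log2 fold change of 2 to 3, as did several endothelial, macrophage and Schwann cell markers of that level. What part this shift has in the marker sums was not tested. Of all markers, only Mcpt4 of the mast cell list had 0 reads in a whole group (WT), and the part of other cells in the results below was not tested. In bulk RNA, fewer cells of a type and less RNA per cell cannot be told apart.

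Of the 9 members, all of which passed the filter for low values (at least 10 normalized counts in at least 3 libraries), 3 rose, 4 fell and 2 did not pass the test. The inhibitors that rose were Timp1, Timp3 and Reck. Those that fell were both activators, Plau and Plat, with the receptor gene Plaur and the serpin gene Serpine2. Calls are limma's test with Benjamini-Hochberg adjustment over 16086 genes at an adjusted p of 0.05. That test called 71.1% of all tested genes, 36.2% higher and 34.9% lower, so 7 of 9 is a share near the background. The groups did not overlap for 8 of the 9 members and for 76.7% of all tested genes. The median absolute log2 fold change was 0.79 over the members and 0.63 over all tested genes, and the median signed log2 fold change was -0.41 and -0.012.

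**Figure D1:**
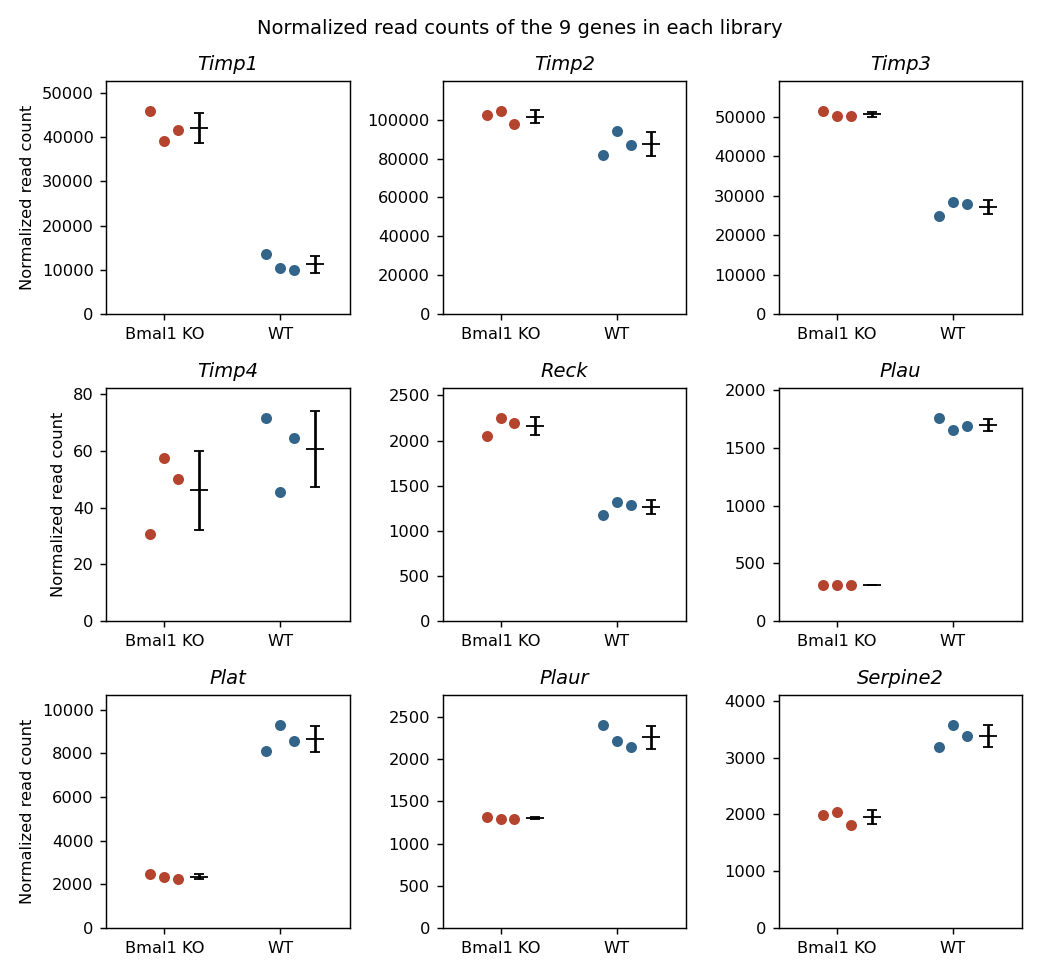
Normalized read counts (vertical axes, each starting at 0) of the 9 genes, with 1 point per library, the libraries labelled Bmal1 KO on the left and WT on the right; the black mark and bar are the mean and SD (n = 3). The groups are apart for every gene but Timp4, whose libraries labelled Bmal1 KO (30.6 to 57.6) overlap WT (45.6 to 71.5).

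Timp1, the TIMP gene known as the most inducible by cytokines and growth factors, rose most among the members. It lies on the X chromosome (20870166 to 20874737, plus strand, mm10). Timp1 counts were 45747, 38997 and 41513 in the libraries labelled Bmal1 KO and 13509, 10337 and 9974 in WT. Each library labelled Bmal1 KO was far above every WT library, and WT replicate 1 was the highest of its group. The means were 42085 ± 3411 in libraries labelled Bmal1 KO and 11274 ± 1945 in WT, a 3.73-fold rise (log2 fold change 1.91, SE 0.13, limma adjusted p = 6.92e-06). Of all tested genes, 12.8% had a larger log2 fold change. Xist, on the same chromosome, separated the same libraries (values above), and its part in the Timp1 difference was not tested.

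Timp3 encodes the TIMP that stays in the matrix. It lies on chromosome 10 (86300412 to 86349505, plus strand). Timp3 stood at 51392, 50318 and 50332 in the libraries labelled Bmal1 KO, against 25012, 28443 and 28072 in WT. The libraries labelled Bmal1 KO differed among themselves by very little (coefficient of variation 1.22%, against 6.93% in WT). The rise was 1.86-fold (log2 fold change 0.90, SE 0.080, limma adjusted p = 3.45e-05). In rank among all tested genes this is a moderate difference, with 22.4% of them further up.

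Timp2, the TIMP gene with the most reads in every library, lies on chromosome 11 (118301061 to 118355411, minus strand). Its counts were 102461, 104193 and 97773 in the libraries labelled Bmal1 KO and 81991, 94014 and 86767 in WT. The groups did not overlap, but the lowest library labelled Bmal1 KO and the highest WT library lay close together. The difference of 1.16-fold did not pass (log2 fold change 0.21, 95% interval -0.019 to 0.45, limma adjusted p = 0.0886). The call depended on the setting, since Timp2 passed as higher with DESeq2 (adjusted p = 0.00565), with upper-quartile scaling (adjusted p = 0.0377) and without WT replicate 2 (adjusted p = 0.0296).

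Timp4, a TIMP gene best known from heart and fat, had the lowest counts of the members (chromosome 6, 115244444 to 115252205, minus strand). It had 122 reads in the libraries labelled Bmal1 KO and 203 in WT over 3 libraries each. As normalized counts these were 30.6, 57.6 and 50.3 in the libraries labelled Bmal1 KO and 71.5, 45.6 and 64.5 in WT. The groups overlapped, and the log2 fold change was -0.41 with a 95% interval of -1.12 to 0.31 (limma adjusted p = 0.262).

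Reck encodes a glycoprotein anchored in the cell membrane that restrains MMP14, MMP2 and MMP9, and that also serves as a co-receptor for WNT7 ligands. The gene is on chromosome 4 (43875521 to 43944806, plus strand). Reck counts were 2053, 2247 and 2193 in libraries labelled Bmal1 KO and 1174, 1318 and 1288 in WT. No library of either group reached the range of the other. Reck rose 1.72-fold (log2 fold change 0.78, SE 0.073, limma adjusted p = 4.46e-05).

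**Figure D2:**
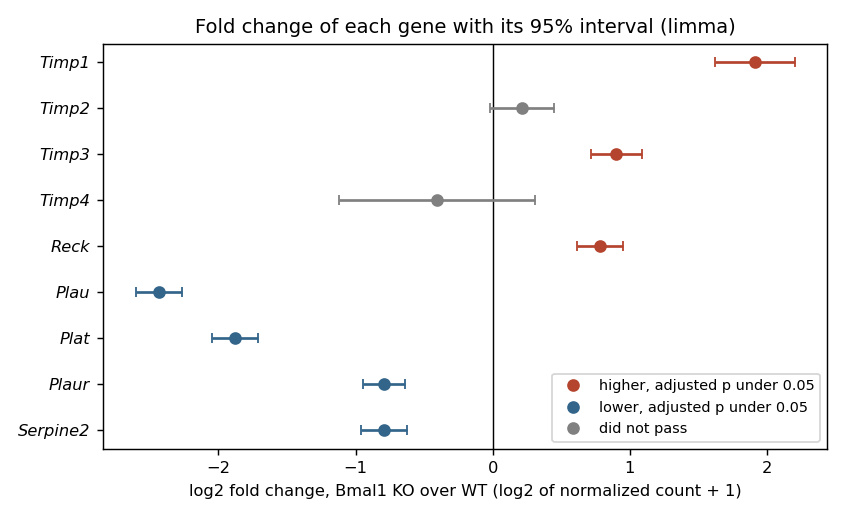
Log2 fold change of each gene, libraries labelled Bmal1 KO over WT (horizontal axis), with its 95% interval from limma; red marks a rise and blue a fall past an adjusted p of 0.05, and grey a gene that did not pass. Timp1 (1.91), Timp3 (0.90) and Reck (0.78) lie to the right of 0, Plau (-2.43), Plat (-1.88), Plaur and Serpine2 (-0.79 each) to the left, and the intervals of Timp2 and Timp4 include 0.

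Plau, the urokinase gene, fell most among the members. It lies on chromosome 14 (20836662 to 20843388, plus strand). Plau stood at 313, 315 and 312 in libraries labelled Bmal1 KO, against 1756, 1652 and 1685 in WT. All libraries labelled Bmal1 KO had nearly the same value (SD 1.79 around a mean of 313). Plau was 5.42-fold lower (log2 fold change -2.43, SE 0.073, limma adjusted p = 1.38e-07), and 2.37% of tested genes had a log2 fold change further down.

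Plat encodes tissue-type plasminogen activator, the activator that works best when bound to fibrin (chromosome 8, 22757722 to 22782848, plus strand). Counts were 2485, 2316 and 2253 in the libraries labelled Bmal1 KO and 8116, 9294 and 8547 in WT. The WT libraries were thus all far above the others, with WT replicate 2 the highest. Plat was 3.68-fold lower (log2 fold change -1.88, SE 0.072, limma adjusted p = 4.04e-07).

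Plaur encodes the receptor that holds urokinase at the cell surface through a lipid anchor (chromosome 7, 24460937 to 24475970, plus strand). Its libraries stood at 1322, 1292 and 1297 in the group labelled Bmal1 KO, against 2407, 2223 and 2148 in WT. The groups were well apart, and Plaur was 1.73-fold lower (log2 fold change -0.79, SE 0.066, limma adjusted p = 2.53e-05).

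Serpine2 encodes protease nexin-1, a serpin that inactivates thrombin, urokinase and plasmin (chromosome 1, 79794317 to 79858665, minus strand). Its counts were 1998, 2044 and 1822 in the libraries labelled Bmal1 KO and 3184, 3576 and 3388 in WT. Again no library crossed into the other group's range. Serpine2 was 1.73-fold lower (log2 fold change -0.79, SE 0.073, limma adjusted p = 4.16e-05), about the same fold as Plaur.

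**Figure D3:**
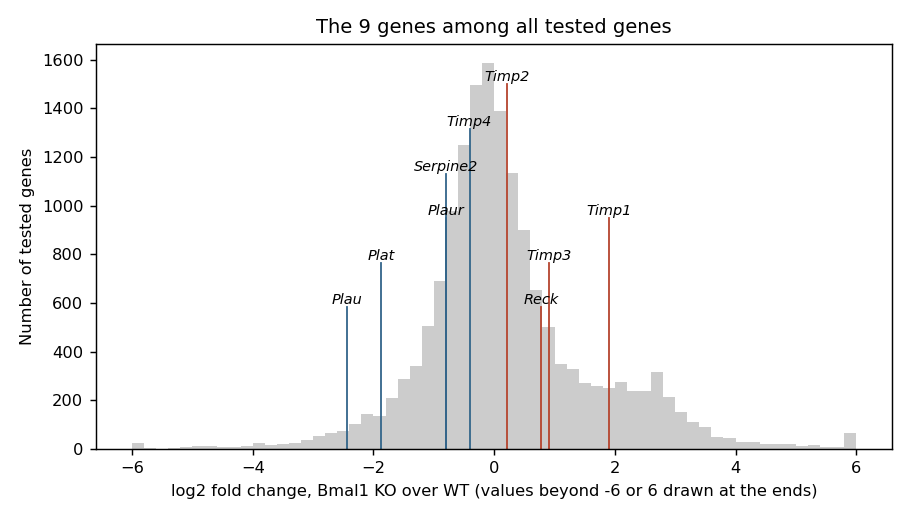
Number of tested genes (vertical axis) by log2 fold change of the libraries labelled Bmal1 KO over WT (horizontal axis, grey bars), with a line for each of the 9 genes whose height has no meaning. Plau (-2.43) and Plat (-1.88) lie in the lower tail with 2.37% and 4.53% of tested genes beyond them, and Timp1 (1.91) has 12.8% above it. Regardless of sign, Timp1 and Plat are alike in rank, with 82.9% and 82.4% of tested genes having a smaller difference. The other genes lie nearer the middle.

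Levels can be compared between genes only per length of transcript, here as normalized counts per kilobase of the longest coding transcript in GENCODE M21. In the libraries labelled Bmal1 KO the order was Timp1 (47662 ± 3863 per kilobase, SD, n = 3), Timp2 (27359 ± 895), Timp3 (10733 ± 130.5), Plat (931 ± 47.6), Serpine2 (885 ± 53.1), Plaur (866 ± 10.5), Reck (488 ± 22.5), Plau (134 ± 0.764) and Timp4 (8.39 ± 2.54). The ranges of Plat and Serpine2 overlapped, as did those of Serpine2 and Plaur, while all 3 Plat values lay above the Plaur values. In WT the order was Timp2 (23616 ± 1632 per kilobase), Timp1 (12767 ± 2202), Timp3 (5755 ± 399), Plat (3427 ± 236), Serpine2 (1531 ± 88.6), Plaur (1500 ± 88.4), Plau (725 ± 22.8), Reck (284 ± 17.2) and Timp4 (11.01 ± 2.44). Here only the neighbours Serpine2 and Plaur were within their spread. Timp1 and Timp2, and likewise Reck and Plau, stood in opposite orders in the 2 groups. The place of Serpine2 rests on the 2210 bp used here, since its shortest coding transcript has 696 bp. With the shortest annotated coding transcripts, a length chosen after seeing the data, the order of Timp1 and Timp2 did not turn: Timp2 was above Timp1 both under the KO label (141331 ± 4626 and 50523 ± 4095 per kilobase) and in WT (121993 ± 8431 and 13534 ± 2335).

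The make-up of the TIMP transcripts differed accordingly. Timp1 made up 53.3 to 57.4% of TIMP transcripts per kilobase in the libraries labelled Bmal1 KO and 27.2 to 35.8% in WT. Timp2 made up 30.6 to 33.9% in the libraries labelled Bmal1 KO and 51.8 to 58.8% in WT, without having fallen in count. With these lengths Timp3 kept a like share, 12.05 to 12.9% under the KO label and 12.4 to 14.6% in WT, while Timp4 was at most 0.0305% in any library. All TIMP transcripts together came to 85763 ± 3989 per kilobase in the libraries labelled Bmal1 KO and 42149 ± 1315 in WT (SD, n = 3 each). These shares rest on the transcript length used: with the shortest annotated coding transcript of each gene, an alternative added after seeing the data, the Timp1 share was 15.0% in the libraries labelled Bmal1 KO and 6.40% in WT. Those shortest lengths are 833, 718, 352 and 945 bp for Timp1, Timp2, Timp3 and Timp4. The longest are 883, 3709, 4722 and 5496 bp. Whether transcripts as short as that of Timp3 are expressed in these cells was not tested. With the shortest lengths Timp3 stood level with Timp2 under the KO label (143980 ± 1750 and 141331 ± 4626 per kilobase). In WT it stood below Timp2 (77203 ± 5349 and 121993 ± 8431).

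**Figure D4:**
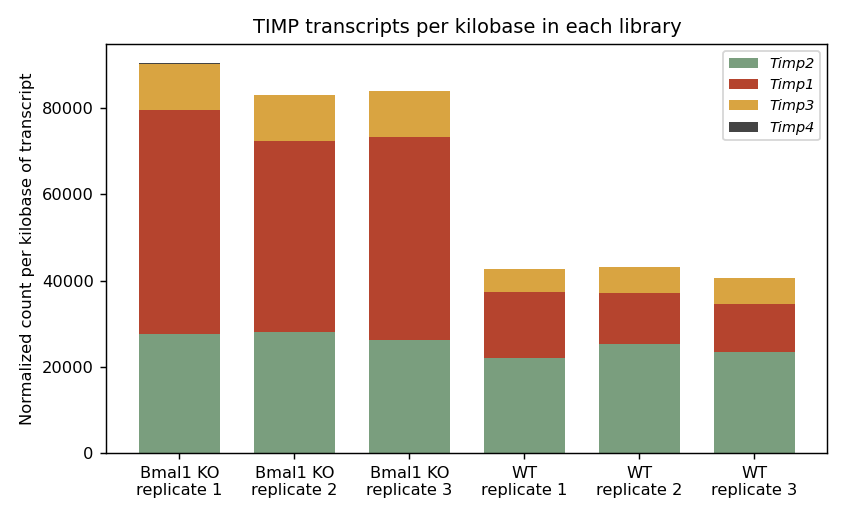
Normalized counts per kilobase of transcript (vertical axis) of the 4 TIMP genes, stacked in each library, the 3 libraries labelled Bmal1 KO left of the 3 WT libraries. The stacks are taller in the libraries labelled Bmal1 KO (mean 85763 against 42149 in WT) mostly through the red Timp1 part. Timp4 is too low to be read. With the shortest coding transcripts (352 bp for Timp3, 833 bp for Timp1) the Timp3 difference (66776 per kilobase) exceeds that of Timp1 (36989).

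Within the activator system the members did not fall evenly. The ratio of Serpine2 to Plau per kilobase was 6.77, 6.87 and 6.19 in the libraries labelled Bmal1 KO and 1.92, 2.29 and 2.13 in WT. For Plaur to Plau it was 6.57, 6.37 and 6.47 in the libraries labelled Bmal1 KO and 2.13, 2.09 and 1.98 in WT. Serpine2 to Plat was 0.919, 1.01 and 0.924 in the libraries labelled Bmal1 KO and 0.448, 0.440 and 0.453 in WT. In each of these ratios the libraries labelled Bmal1 KO lay above all WT libraries, so that less activator transcript was present per transcript of its inhibitor or receptor. The size of the Serpine2 ratios, but not their direction between groups, rests on its transcript length. That length was 2210 bp here, and the shortest coding transcript has 696 bp.

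All TIMP genes share their locus with another gene. Timp1, Timp3 and Timp4 each lie inside a synapsin gene (Syn1, Syn3 and Syn2, which encode proteins of nerve terminals) and on its opposite strand, and the small gene Cep295nl lies inside Timp2 on the same strand. The strand setting of the counting is not given in the sources used here, so reads of overlapping exons may be split wrongly. Shared exonic bases in GENCODE M21 were 0 for Timp1 and Syn1, 0 for Timp2 and Cep295nl, 90 of 5894 for Timp4 and Syn2, and 1733 of 8144 for Timp3 and Syn3. Timp3 had the largest shared stretch, and Syn3 stood at 128 ± 27.7 in libraries labelled Bmal1 KO and 102 ± 22.0 in WT and did not pass (adjusted p = 0.244, limma). Syn1 rose 4.80-fold, to 2284 ± 394 in the libraries labelled Bmal1 KO against 476 ± 153 in WT (limma adjusted p = 8.47e-05). Syn2 rose 6.75-fold (1359 ± 256 under the KO label and 201 ± 108.3 in WT, limma adjusted p = 0.000634) while Timp4, inside it, did not pass. Cep295nl rose 2.95-fold (217 ± 25.4 under the KO label and 73.7 ± 21.1 in WT, limma adjusted p = 0.000433). Low genes rose more often in this comparison: with a mean under 100 normalized counts, 43.1% of 3597 tested genes rose and 18.3% had a log2 fold change of 2 to 3, against 33.9% and 2.11% of 6959 genes with a mean of 1000 and over. Genes with a mean of 100 to 1000 lay between, with 34.5% higher and 8.55% at a log2 fold change of 2 to 3. Syn1, Syn2 and Syn3 had means over 100 in both groups, and Cep295nl only under the KO label. Timp4 was under 100 in both groups and did not rise. What this shift has to do with the genes named here was not tested.

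Other genes of the plasminogen system mostly rose or did not pass. Of 20 listed, 15 could be tested, 8 rose, 3 fell and 4 did not pass (73.3% called, against 71.1% of all tested genes), with a median log2 fold change of 0.50. The 3 that fell were Eno1 (a plasminogen-binding enolase), Vldlr and Igf2r, which clear or bind parts of the system. The calls of A2m (higher, adjusted p = 0.048) and Igf2r (lower, adjusted p = 0.0458) were lost without each of 5 libraries (A2m all but WT replicate 3, Igf2r all but WT replicate 1, limma adjusted p of 0.0529 to 0.146 and 0.0792 to 0.141). A2m also lost its call with the replicate block (adjusted p = 0.0551), edgeR (0.0579), DESeq2 (0.0793), TMM scaling (0.0522), total reads scaling (0.0587), no filter (0.0566) and a pseudocount of 0.5 (0.0511), and Igf2r with upper-quartile scaling (0.0772). Plasminogen itself was not detectable as a transcript, with 1 read of Plg in each group, under the floor of 3 reads, and F12 and Klkb1, which encode proteases of the contact system, were too low to test. Among inhibitors, Serpinb2, which encodes a second fast inhibitor of urokinase, rose 11.96-fold, to 6487 ± 196 in libraries labelled Bmal1 KO against 542 ± 16.1 in WT (SD, n = 3, limma adjusted p = 1.54e-08). It stood at 6608, 6261 and 6592 in the libraries labelled Bmal1 KO and at 536, 561 and 530 in WT, with no overlap. Serpini1 (neuroserpin), an inhibitor of tissue-type plasminogen activator in the nervous system, rose 1.92-fold (556 ± 146 under the KO label and 290.1 ± 53.8 in WT, limma adjusted p = 0.00699).

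Receptors and docking sites for plasminogen and its activators numbered 11, of which 5 rose, 3 fell and 3 (Plgrkt, Lrp1 and Itgb3) did not pass. The share called was 72.7%, against 71.1% of all tested genes. Anxa2 and S100a10 together encode a surface complex that binds plasminogen and its tissue activator. Anxa2 rose 2.90-fold (60380.2 ± 2512 in the libraries labelled Bmal1 KO and 20789 ± 1952 in WT, limma adjusted p = 3.94e-06) and S100a10 2.30-fold (12929 ± 1560 under the KO label and 5610.4 ± 1216 in WT, limma adjusted p = 0.00021). Vtn, which encodes vitronectin, a matrix protein that binds the urokinase receptor, rose 8.93-fold from a low level (418 ± 126.5 in the libraries labelled Bmal1 KO and 46.9 ± 25.6 in WT, limma adjusted p = 0.00049). Plgrkt, a plasminogen receptor gene, was at 950.0 ± 44.3 under the KO label and 1023 ± 183 in WT and did not pass (limma adjusted p = 0.527). Lrp1, whose product clears activators bound to their inhibitors, was at 97260.0 ± 9244 under the KO label and 83805 ± 15223 in WT and did not pass either (limma adjusted p = 0.216).

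Of the proteases that TIMPs or RECK inhibit, 21 were listed, and all of these passed the test, 11 higher and 10 lower. Of all tested genes 71.1% were called. The list was chosen with earlier results of these data known, so its share and sizes are a description only. Apart from Mmp14, only Mmp16 lost its call when a library was left out (adjusted p = 0.0514, limma, without replicate 2 of the libraries labelled Bmal1 KO). The median absolute log2 fold change was 1.597 over these proteases and 0.63 over all tested genes. Mmp2, the gelatinase gene whose product TIMP2 helps to activate, fell 21.4-fold (2195 ± 73.7 in the libraries labelled Bmal1 KO and 46936 ± 4332 in WT, limma adjusted p = 1.65e-08). Mmp3 (stromelysin) fell 3.73-fold (22229 ± 859 under the KO label and 83003 ± 9879 in WT, limma adjusted p = 2.39e-06) and the other gelatinase gene Mmp9 5.34-fold at a low level (12.9 ± 9.30 under the KO label and 68.6 ± 16.7 in WT, limma adjusted p = 0.00198). Mmp14 was 1.154-fold lower (18032 ± 306 under the KO label and 20810.1 ± 856 in WT, limma adjusted p = 0.02). This call was lost without replicate 1, 2 or 3 of the libraries labelled Bmal1 KO (adjusted p = 0.0791, 0.0586 and 0.0793) and with upper-quartile scaling (adjusted p = 0.0518).

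Among the targets of TIMP3, Adam17, which encodes the enzyme that sheds tumour necrosis factor, fell 1.75-fold (2061 ± 138 in the libraries labelled Bmal1 KO and 3610 ± 73.0 in WT, limma adjusted p = 2.34e-05). The aggrecanase genes moved apart, Adamts4 being 3.05-fold lower (675 ± 33.3 under the KO label and 2058 ± 289 in WT, limma adjusted p = 9.13e-06) and Adamts5 1.74-fold higher (11425 ± 984 under the KO label and 6560.03 ± 75.6 in WT, limma adjusted p = 4.32e-05). Adam10, a sheddase gene, rose 1.63-fold (6268 ± 283 under the KO label and 3847 ± 511 in WT, limma adjusted p = 0.000424), and Adamts1, a gene for a protease of versican, rose 20.2-fold (45485 ± 3153 under the KO label and 2252 ± 215 in WT, limma adjusted p = 2.19e-08). Of the 5 partners of RECK in WNT7 signalling, 80% were called, against 71.1% of all tested genes. Of these partners 3 rose (Wnt7b, Fzd4 and, at a low level, Wnt7a), 1 fell (Lrp6) and 1 did not pass. The last was Adgra2, the adhesion receptor gene that works with RECK, at 9759 ± 463 in the libraries labelled Bmal1 KO and 9454 ± 1813 in WT (limma adjusted p = 0.68).

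**Figure D5:**
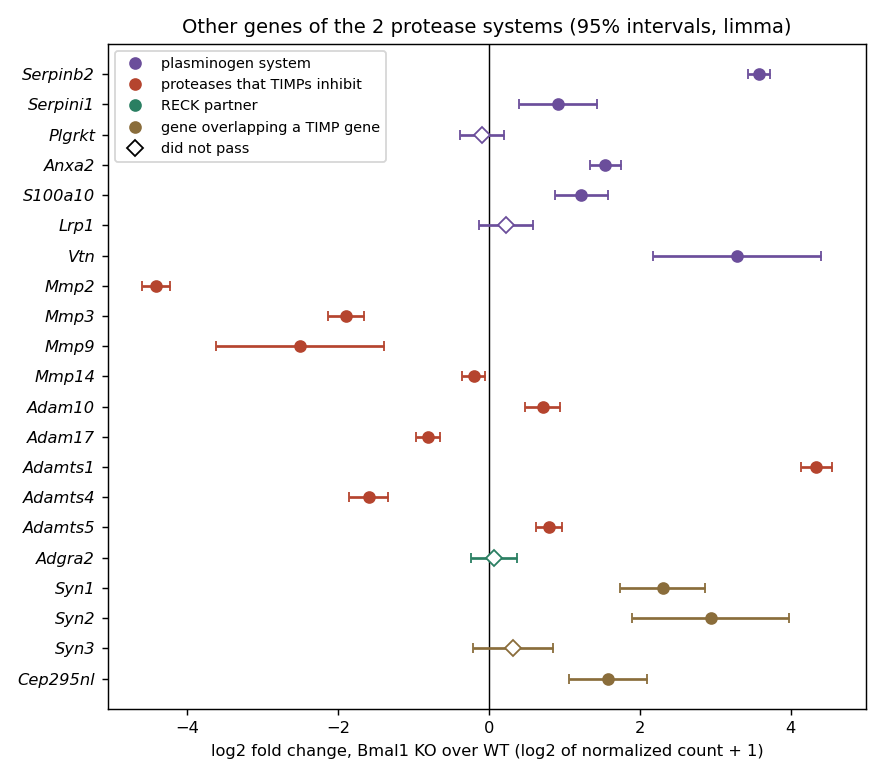
Log2 fold change, libraries labelled Bmal1 KO over WT, with 95% intervals from limma (horizontal axis) for the named genes of the plasminogen system, proteases that TIMPs inhibit, a RECK partner and genes overlapping a TIMP gene; open diamonds did not pass an adjusted p of 0.05. The proteases lie on either side of 0, from Mmp2 (-4.41) to Adamts1 (4.34). Of the 7 plasminogen system genes drawn, the 5 that passed lie to the right of 0. The 3 of that system that fell (Eno1, Vldlr and Igf2r) are not drawn, nor are others that rose.

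Genes with the most similar pattern over the 6 libraries were found by the highest Pearson r of log2(normalized count + 1) among 11970 other genes with a mean of at least 100. For Timp1 this was Tpm2 (r = 0.9996), for Timp2 B3gnt9 (r = 0.998), for Timp3 Msrb3 (r = 0.9999), for Timp4 Zfp273 (r = 0.9896), and for Reck Epn2 (r = 0.9996). For Plau it was Pdk1 (r = 0.9998), for Plat Epha2 (r = 0.9999), for Plaur Adsl (r = 0.9999) and for Serpine2 Parvb (r = 0.9998). The 6 points fall into 2 groups of 3, so that r largely follows the contrast itself, and 307 to 813 genes had an r over 0.99 with each member but Timp2 (14 genes) and Timp4 (0 genes).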

How the data were processed

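Polyadenylated RNA was sequenced in 6 libraries, 3 labelled Bmal1 KO and 3 labelled WT, grouped by sample title. The submitters' processing notes name Trimmomatic, HISAT2, featureCounts and mm10 but no version or role, and no source used here gives the annotation or strand setting. What the authors deposited is a non-negative signal per gene, namely reads scaled by a size factor of each library. Dividing by the smallest step of each library returned whole reads for 100% of values (tolerance 0.01), and the factors so implied (0.834 to 0.981 for Bmal1 KO and 1.09 to 1.21 for WT) equalled median-ratio size factors of those reads. A count test on the recovered reads with edgeR called 11479 genes.

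The main test was limma with a mean-variance trend on log2(value + 1) over genes with at least 10 normalized counts in at least 3 libraries, checked on simulated data. Differences are Bmal1 KO minus WT. Fold values are ratios of mean normalized counts, and log2 fold changes with a pseudocount understate changes of low genes. Members and lists were chosen with earlier results of these data known. All members were named, and the other genes by a list fixed by role whatever their values, together with Tpm2 and the other genes of most similar pattern. Myh11, Dcn and Kit come from the marker lists, and F12, Klkb1, Eno1, Vldlr, Igf2r, A2m, Wnt7a, Wnt7b, Fzd4 and Lrp6 were named after their values were seen. No pair of replicates was as alike as 1 library sequenced again would be. The floor of 3 reads covers counting error only, since PCR copies of a molecule are counted apart. DESeq2 (1.42.0), edgeR (4.0.16) and limma (3.58.1) ran in R 4.3.3. Alternatives were other scalings, filters, pseudocounts and tools, the replicate number as a block, and each library left out. The shortest transcripts and the marker sums without the highest gene were added after seeing the data.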

Additional observations from a re-analysis of the deposited data

How the results depend on the processing

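Of the 9 members, 7 were called in the main fit and 7 to 8 under every alternative run, the eighth being Timp2. Its log2 fold change of 0.21 was 0.22 with DESeq2, 0.27 with upper-quartile scaling and 0.27 without WT replicate 2, where it passed, and 0.14 to 0.27 over all alternatives. Without 1 library, log2 fold changes ran from 1.83 to 2.05 for Timp1, 0.84 to 0.94 for Timp3, 0.73 to 0.82 for Reck, -2.45 to -2.41 for Plau, -1.92 to -1.83 for Plat, -0.83 to -0.74 for Plaur, -0.83 to -0.74 for Serpine2, and -0.60 to -0.14 for Timp4, which passed under no alternative run. Among all genes tested, 11435 were called, and 10283 to 11692 without 1 library. In the plasminogen list 11 genes were called, and 9 to 10 without 1 library, and among the TIMP targets 21, and 19 to 21. The Timp1 share of the TIMP pool was 54.6 to 56.6% (Bmal1 KO) and 27.5 to 31.8% (WT) without 1 library, and 15.0% (Bmal1 KO) and 6.40% (WT) with the shortest coding transcripts. The replicate numbers of the labels did not pair the libraries (correlations of deviations -0.0045, 0.026 and 0.084, against a minimum of 0.1). With the replicate block 11556 genes were called in all, 7 of the members and 10 of the plasminogen list, which lost A2m. Timp4, with 122 reads under the KO label and 203 in WT, had the fewest reads of the members.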
